A study of Mus musculus with 4 samples.

Results

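The genes described here encode the amino acid transporters of 9 solute carrier families in mouse liver: Slc1, Slc3, Slc6, Slc7, Slc15, Slc16, Slc36, Slc38 and Slc43. Members were chosen by symbol and by level: a table row had to name 1 gene of these families, rows of the same symbol were added together, and the mean over the 4 libraries had to be at least 0.5 FPKM (fragments mapped to a gene, scaled by transcript length and by the size of the library). Of 77 such genes considered, 40 reached that level, out of 11849 symbols that did so among 22849 in all. The mean FPKM therefore chose the members and is given only as a description. The difference between the groups was not used. No member reached 0.5 FPKM in the mean of 1 group only.

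The livers came from male C57BL/6 mice, an inbred laboratory strain, and all animals were fed for 12 weeks on a high fat diet with 60% fat. The vehicle group ate this diet alone, and the UAB126 group had 1.2 g of UAB126 per kg mixed into it. The labels name this compound by its code alone, and the sources used here do not give the age of the mice. Each group has 2 libraries of polyadenylated RNA, and whether each is a different animal is not stated. The p-values therefore measure only how these libraries scatter, which may be partly technical. There was no group on a normal diet.

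Amino acids cross the hepatocyte membrane through carriers that differ in substrate and driving force. The Slc38 proteins couple neutral amino acids to sodium, and the Slc7 proteins are either cationic amino acid carriers or light chains that need a heavy chain of the Slc3 family to reach the membrane. Slc43 and Slc16a10 proteins let large neutral or aromatic amino acids pass down their gradient. Slc36 and Slc15 proteins use protons to move small amino acids or peptides, and some Slc16 proteins carry monocarboxylates such as lactate. Several transporter genes, among them Slc7a5, Slc3a2 and Slc38a2, are known targets of ATF4, the transcription factor that cells activate when amino acids are short or the endoplasmic reticulum is stressed.

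The libraries were of unequal depth. With UAB126 replicate 1 set to 1, the relative depth read from the steps of low values was 0.691 and 0.404 in vehicle replicates 1 and 2 and 0.703 in UAB126 replicate 2. The absolute depth is unknown, and genes near 1 FPKM are the least precise, most of all in vehicle replicate 2. Of the hepatocyte markers, Ttr (transthyretin) was at 34335 and 44092 FPKM on vehicle, against 19625 and 25328 FPKM on UAB126, while Alb (albumin) was listed at 0 in all but vehicle replicate 2. Kupffer cell markers summed to 136 and 410 FPKM on vehicle, against 296 and 376 FPKM on UAB126, with 4 of 12 higher in both UAB126 libraries and none at 0. Sinusoidal endothelial markers summed to 149 and 245 against 225 and 255 FPKM, with 5 of 11 higher in both UAB126 libraries and none at 0. No marker of these cell types was lower in both UAB126 libraries. Of 15 hepatocyte markers, 3 were higher and 9 lower in both UAB126 libraries. Among all symbols in the test described below, 22.7% were higher and 26.9% lower in this sense. The part of other cells in the transporter values was not tested, and in whole liver fewer cells of a type cannot be told apart from less RNA per cell.

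The transporter profile of these livers was dominated by sodium-coupled neutral amino acid carriers, and the UAB126 livers differed from it in both directions. Among the genes of heteromeric CD98 carriers, Slc3a2, Slc7a5 and Slc7a7 were about 2 to 4 times as high with UAB126, while Slc7a8 overlapped. The genes of the stress-responsive carrier SNAT2 (Slc38a2) and of the cationic carrier CAT-2 (Slc7a2) were about 2 times as high. The orphan Slc15a5, the leucine carrier gene Slc43a1 and Slc38a11 were lower. Slc15a5 passed the test across all genes, Slc38a11 was too low to be tested, and the others did not pass.

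For the comparison, log2(FPKM + 1) of 10786 symbols (mean FPKM 1 or more) was fitted with limma, with a two-sided test, and genes with a Benjamini-Hochberg adjusted p under 0.05 were called. In all, 0.139% of the symbols passed, 0.0464% as higher and 0.0927% as lower with UAB126. Of the 40 members, 37 were tested and 1 passed, as lower. At an unadjusted p under 0.05 there were 10 of 37 members (27.0%), 8 higher and 2 lower, against 13.4% of all tested symbols (5.03% higher, 8.38% lower). Both UAB126 libraries lay above both vehicle libraries in 13 of 40 members (32.5%), against 23.0% of all symbols with at least 0.5 FPKM, and below in 9 (22.5%), against 26.3%. With the further condition of a 1.5-fold gap between the group means there were 8 higher and 5 lower members, where 9.06% and 12.7% of all symbols met these conditions. The median log2 difference of the members was 0.06, and that of all 11849 symbols -0.02. For any single gene the smallest two-sided p that an exact permutation of 2 against 2 libraries allows is 0.333.

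**Figure D1:**
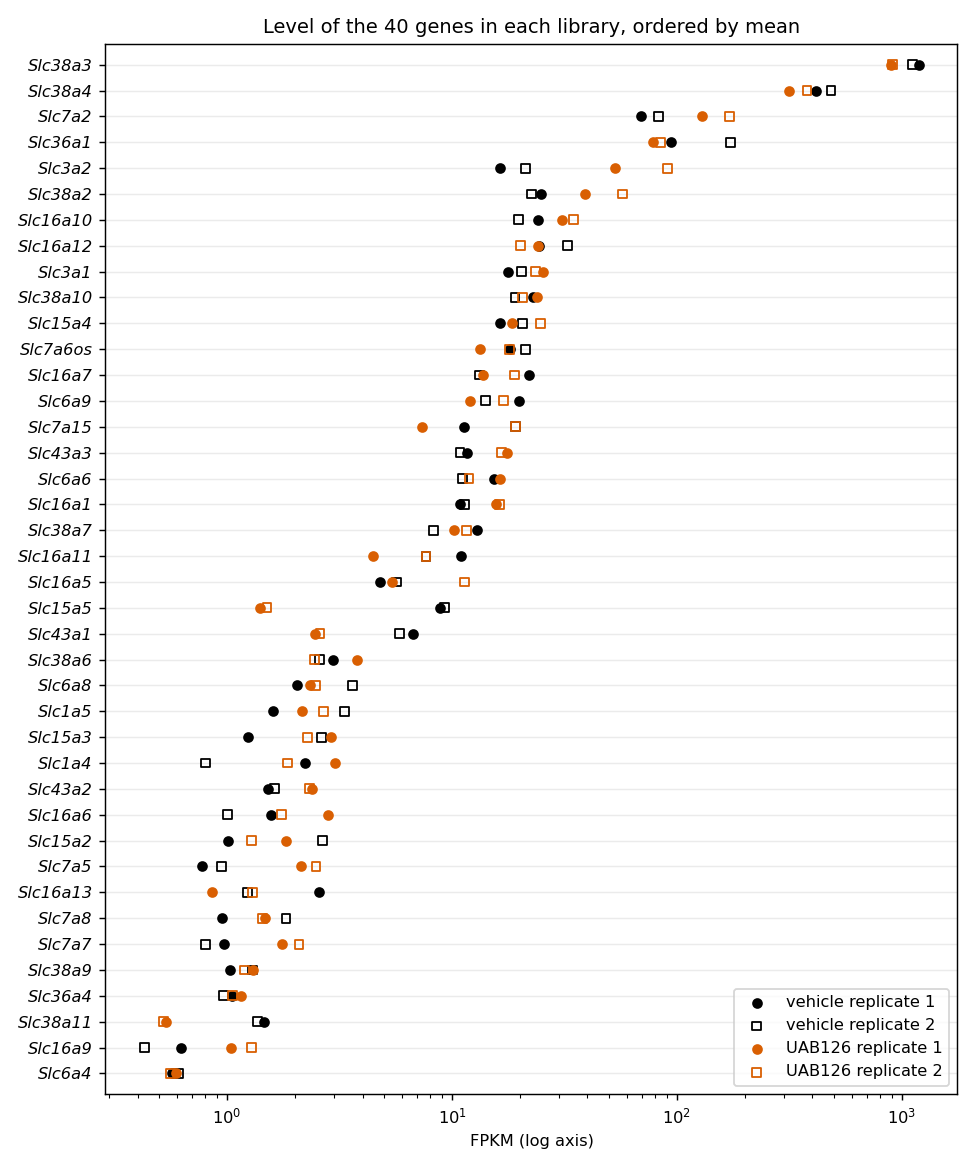
FPKM of the 40 genes on a log axis, ordered by the mean. Black symbols are vehicle and orange symbols UAB126, with a circle for replicate 1 and an open square for replicate 2. Slc38a3 stands at the top, with 891 to 1188 FPKM, and the orange points lie to the right of the black ones in Slc3a2, Slc38a2, Slc7a2 and Slc7a5 and to the left in Slc15a5 and Slc43a1.

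The level of the members ranged widely. Slc38a3 had the highest mean (1024 FPKM), followed by Slc38a4 (398 FPKM), Slc7a2 (113 FPKM) and Slc36a1 (108 FPKM). These 4 genes were the only members above 100 FPKM, and 19 members had at least 10 FPKM. Slc38a3 and Slc38a4 made up 76.7% and 73.4% of the summed FPKM of all members in vehicle, and 67.7% and 64.5% with UAB126. Without this pair the members summed to 487 and 577 FPKM on vehicle, against 575 and 709 FPKM on UAB126, so that the groups overlapped. The members nearest above the 0.5 FPKM minimum were Slc38a11, Slc16a9 and Slc6a4, with means of 0.972, 0.843 and 0.584 FPKM. Nearest below it were Slc7a4 (0.429 FPKM), Slc1a3 (0.416 FPKM) and Slc7a1 (0.384 FPKM). Of the 37 genes below the minimum, 12 were listed at 0 in all libraries, among them Slc6a19, the main neutral amino acid carrier of intestine and kidney. Slc7a11, the cystine carrier and a known ATF4 target, was listed at 0 in 3 libraries and at 0.0092 FPKM in UAB126 replicate 1.

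**Figure D2:**
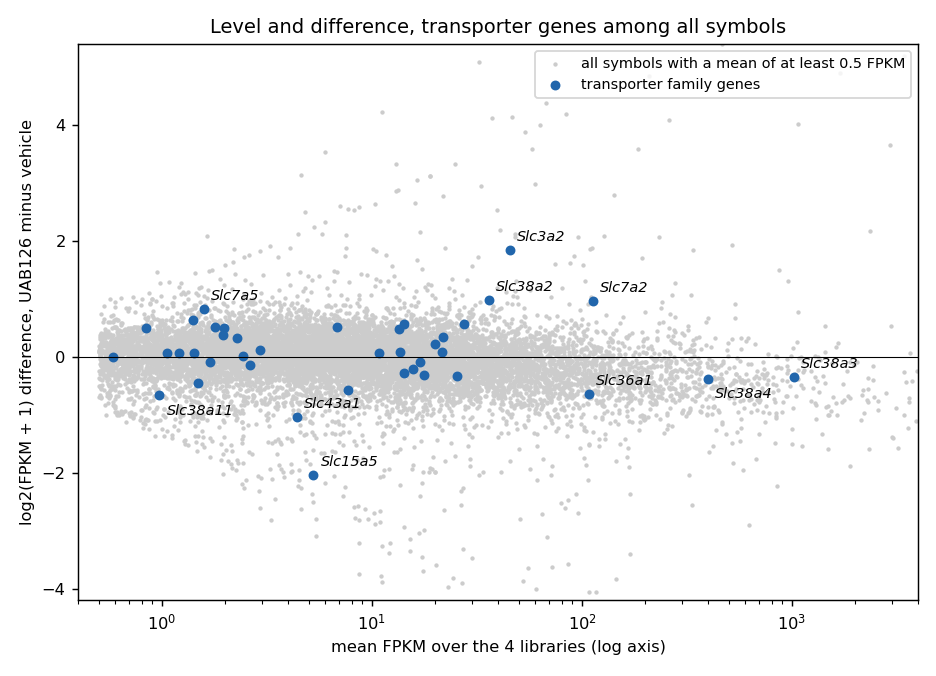
Log2(FPKM + 1) difference, UAB126 minus vehicle, against the mean FPKM over the 4 libraries (log axis) for all symbols with at least 0.5 FPKM (grey) and the 40 transporter genes (blue), with 10 of them named. Slc3a2 lies at 1.84 and Slc15a5 at -2.04, while most blue points lie within the grey band. 75 symbols fall outside the axes.

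The heavy chains of heteromeric carriers were both higher with UAB126, to different extents. Slc3a2 encodes 4F2hc (CD98), the heavy chain that brings the light chains LAT1, LAT2 and y+LAT1 to the cell surface, and lies on chromosome 19 at 8706882 to 8723369 of mm10. It was at 16.3 and 21.2 FPKM on vehicle, against 52.9 and 90.7 FPKM on UAB126. The groups did not overlap, and UAB126 replicate 2 stood well above replicate 1. The ratio of the means was 3.83 and the log2 difference 1.84 ± 0.32 (limma's moderated standard error, as for every ± below, n = 2 per group), which did not pass (limma adjusted p = 0.161). It passed only with the replicate number as a block (limma adjusted p = 0.0354), and over the 17 alternatives its adjusted p ran from there to 0.6095. Slc3a1, the heavy chain rBAT of the cystine carrier, was at 17.8 and 20.4 FPKM on vehicle, against 25.4 and 23.6 FPKM on UAB126 (log2 difference 0.34 ± 0.19). Its light chain gene Slc7a9 was listed at 0 in all but vehicle replicate 1, where it had 0.04 FPKM.

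Among the light chains, Slc7a5 and Slc7a7 were higher with UAB126 and Slc7a8 was not separated. Slc7a5 encodes LAT1, the carrier of large neutral amino acids such as leucine (chromosome 8, 121881150 to 121907694). It was at 0.771 and 0.945 FPKM on vehicle, against 2.13 and 2.48 FPKM on UAB126, a ratio of means of 2.69. The log2 difference was 0.83 ± 0.22 (limma adjusted p = 0.270). Slc7a7 encodes y+LAT1, which exchanges cationic for neutral amino acids (chromosome 14, 54369442 to 54417780). It was at 0.967 and 0.801 FPKM on vehicle, against 1.75 and 2.09 FPKM on UAB126 (log2 difference 0.63 ± 0.22, limma adjusted p = 0.337). The gene is also known from macrophages. Of the 12 Kupffer cell markers, Emr1, Csf1r, Cd68 and Cd5l were higher in both UAB126 libraries, against 22.7% of all tested symbols. The other 8 overlapped, and the median log2 difference of the 12 was 0.52. Emr1, which encodes the macrophage antigen F4/80, was at 1.15 and 1.87 against 4.39 and 3.31 FPKM. The part of these cells in the Slc7a7 values was not tested. In Slc7a8, which encodes LAT2, vehicle had both the lowest and the highest value, 0.953 and 1.83 FPKM, with 1.47 and 1.44 FPKM under UAB126.

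Slc3a2 had a higher FPKM than Slc7a5, Slc7a7 and Slc7a8 together in every library. These 3 light chain genes summed to 2.69 and 3.57 FPKM on vehicle, against 5.35 and 6.01 FPKM on UAB126. Slc3a2 was 21.2 and 22.4 times the FPKM of Slc7a5 in vehicle, and 24.8 and 36.5 times with UAB126. The heavy chain and LAT1 thus stood in similar ratios in the vehicle libraries and UAB126 replicate 1, and in a higher ratio in UAB126 replicate 2. Slc7a15, a light-chain-like gene, gave no separation, at 11.3 and 19.1 FPKM on vehicle, against 7.35 and 19.1 FPKM on UAB126. With Slc7a15 added, the light chain genes summed to 14.0 and 22.7 against 12.7 and 25.1 FPKM, so that the groups overlapped. That sum was above Slc3a2 (21.2 FPKM) in vehicle replicate 2.

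Slc7a2 encodes CAT-2, the main carrier of arginine, lysine and ornithine into hepatocytes, and lies on chromosome 8 at 40862396 to 40922308. It was at 69.0 and 82.7 FPKM on vehicle, against 129 and 171 FPKM on UAB126. Both UAB126 libraries were higher, with a ratio of means of 1.98 and a log2 difference of 0.97 ± 0.25 that did not pass (limma adjusted p = 0.269). The other cationic carrier genes were low: Slc7a1 (CAT-1) had a mean of 0.384 FPKM. Slc7a6os matched by its symbol but is a gene on the strand opposite to Slc7a6 and is no transporter, which leaves 39 transporter family members. It was at 18.2 and 21.3 FPKM on vehicle, against 13.3 and 18.1 FPKM on UAB126.

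Promoter sequence was read for every member with an entry in the RefSeq table, since Slc7a5, Slc3a2 and Slc38a2 are known ATF4 targets. The motif was TGATGNAA, the core of the composite site bound by ATF4 with C/EBP partners, searched on both strands of the 250 bases upstream of each RefSeq start (build GRCm38.p6, the assembly of mm10). It was found in 3.45% of all 32851 upstream windows. Of the 40 members 28 had a window in the table, 38 windows in all, and 2 of these windows (5.26%), both of Slc7a7, held it. Slc7a2 and Slc7a5 had no entry, and the window of Slc3a2 held no match. Only these 250 bases were searched, so a window without a match does not show that the gene lacks the site. The window of Slc7a7 is shown because it holds the match (in capitals). That of Slc38a2 is from a known ATF4 target and has no match, and that of Slc15a5 is from the gene that passed the test. All 3 are written 5′ to 3′ on the strand of the gene, which is the minus strand, and lie at chr14:54417945-54418194, chr15:96699729-96699978 and chr6:138079917-138080166.
Slc7a7: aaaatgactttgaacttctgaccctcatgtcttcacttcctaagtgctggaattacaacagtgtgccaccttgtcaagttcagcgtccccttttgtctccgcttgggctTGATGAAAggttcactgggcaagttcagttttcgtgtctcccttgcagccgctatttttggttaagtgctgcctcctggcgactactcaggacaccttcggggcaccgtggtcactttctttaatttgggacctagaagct
Slc38a2: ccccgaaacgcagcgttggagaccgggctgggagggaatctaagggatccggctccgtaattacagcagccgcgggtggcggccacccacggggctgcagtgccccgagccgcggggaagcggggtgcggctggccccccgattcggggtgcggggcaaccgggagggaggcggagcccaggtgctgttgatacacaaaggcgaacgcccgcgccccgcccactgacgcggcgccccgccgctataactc
Slc15a5: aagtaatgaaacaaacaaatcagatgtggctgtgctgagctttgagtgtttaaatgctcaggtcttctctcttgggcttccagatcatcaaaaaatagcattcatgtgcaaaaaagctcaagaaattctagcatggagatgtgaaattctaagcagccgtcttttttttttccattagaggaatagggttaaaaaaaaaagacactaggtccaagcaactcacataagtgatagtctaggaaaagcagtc
In the Slc7a7 window shown, the match begins 141 bases upstream of this start. The second Slc7a7 match, TGATGCAA, begins 243 bases upstream of another start (window chr14:54417703-54417952). The remaining Slc7a7 windows hold none, and neither do the windows of Slc38a2 and Slc15a5. The base composition of the 3 windows shown differed, with 48.8% G and C in Slc7a7, 72% in Slc38a2 and 37.2% in Slc15a5. The median over all windows was 52.4%.

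**Figure D3:**
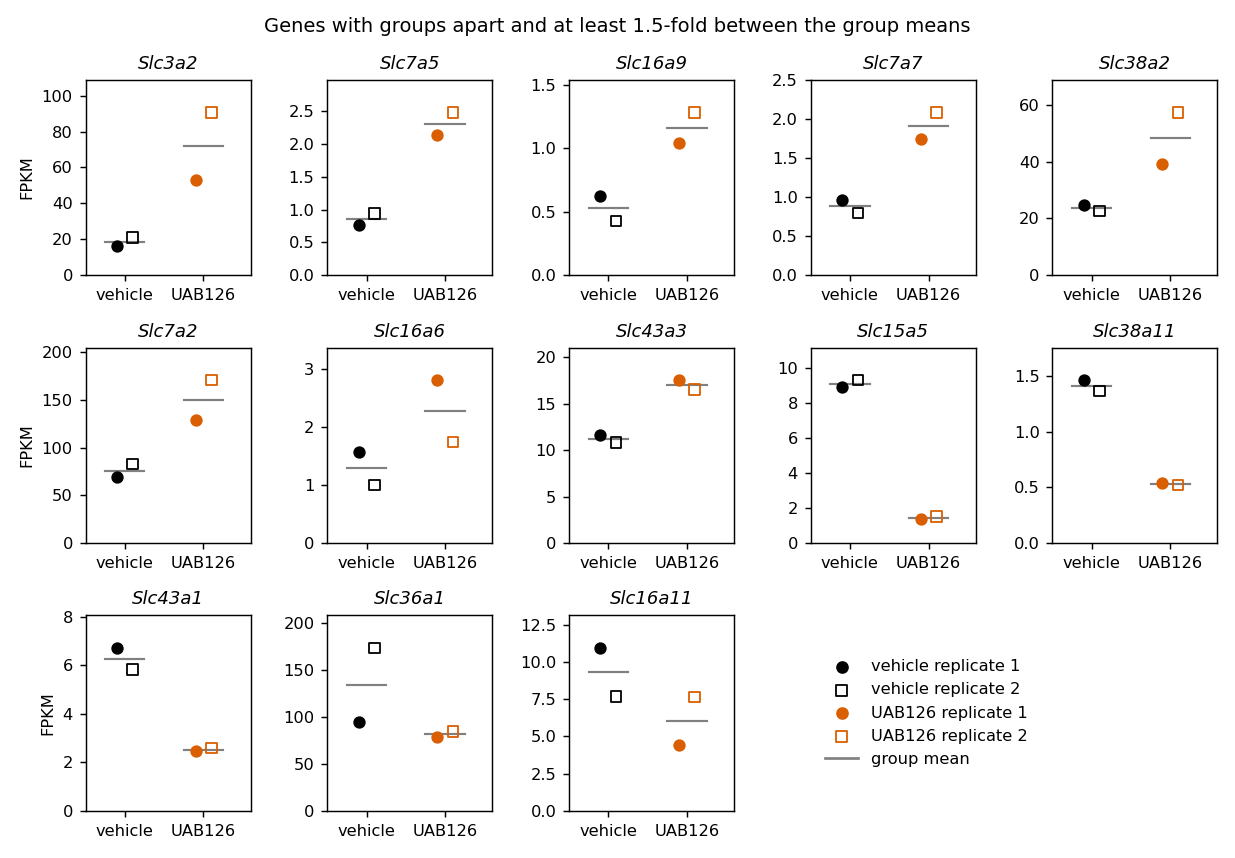
FPKM in each library (points as before; grey line, group mean; linear axes from 0) of the 13 genes whose groups did not overlap and whose group means differed at least 1.5-fold. The first 8 panels are higher with UAB126, from Slc3a2 (ratio 3.83) to Slc43a3 (1.52), and the last 5 are lower, from Slc15a5 (6.26 times as high in vehicle) to Slc16a11 (1.54).

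In the Slc38 family the inducible carrier and the abundant liver carriers lay on opposite sides as deposited, but not after quantile normalization. Slc38a2 encodes SNAT2, a system A carrier of alanine, glutamine and other small neutral amino acids that cells induce when amino acids are scarce (chromosome 15, 96687392 to 96699730). It was at 24.8 and 22.5 FPKM on vehicle, against 39.1 and 57.3 FPKM on UAB126. The vehicle libraries were close together, and both UAB126 libraries lay above them. The ratio of means was 2.04 and the log2 difference 0.97 ± 0.25 (limma adjusted p = 0.269).

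Slc38a3 encodes SNAT3, the system N carrier that moves glutamine and histidine in and out of hepatocytes (chromosome 9, 107650634 to 107669530). It was at 1188 and 1111 FPKM on vehicle, against 891 and 906 FPKM on UAB126, a log2 difference of -0.35 ± 0.26 (limma adjusted p = 0.537). Slc38a4 encodes SNAT4, the hepatocyte system A carrier (chromosome 15, 96994820 to 97055956), and was at 414 and 484 FPKM on vehicle, against 313.5 and 379 FPKM on UAB126 (log2 difference -0.38 ± 0.25, limma adjusted p = 0.512). Both were lower in both UAB126 libraries as deposited, and after quantile normalization both differences changed sign, to 0.10 for Slc38a3 and 0.03 for Slc38a4. Abundant genes as a whole were lower as deposited: the median log2 difference of the 1036 symbols averaging 100 FPKM or more was -0.39, and 49.5% of them were lower in both UAB126 libraries against 8.49% higher. Slc38a3 had 48.0 and 49.3 times the FPKM of Slc38a2 in vehicle, and 22.8 and 15.8 times with UAB126.

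The remaining Slc38 genes were lower in level. Slc38a11, annotated as a putative amino acid carrier (chromosome 2, 65316430 to 65364034), was at 1.46 and 1.37 FPKM on vehicle, against 0.535 and 0.523 FPKM on UAB126. The libraries of each group were close together and the ratio of means was 2.67 in favour of vehicle. Its mean was under the 1 FPKM needed for the test. In the fit with a minimum of 0.5 FPKM its log2 difference was -0.66 ± 0.20 (limma adjusted p = 0.312). Slc38a6, Slc38a7, Slc38a9 and Slc38a10 overlapped between the groups, with log2 differences from 0.06 to 0.11. Slc38a9, the lysosomal arginine sensor that signals to mTORC1, was at 1.03 and 1.30 against 1.31 and 1.20 FPKM.

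The Slc1 and Slc6 members did not separate the groups. Slc1a5, the glutamine exchanger ASCT2, was at 1.60 and 3.33 FPKM on vehicle, against 2.14 and 2.68 FPKM on UAB126. Slc1a4, the alanine and serine exchanger ASCT1, was at 2.21 and 0.80 against 3.01 and 1.86 FPKM. Among the Slc6 genes, Slc6a9 (glycine carrier GlyT1), Slc6a6 (taurine carrier), Slc6a8 (creatine carrier) and Slc6a4 (serotonin carrier) all overlapped, and the highest of them, Slc6a9, was at 19.9 and 14.1 against 12.0 and 17.0 FPKM. A row that names Slc6a12 and Slc6a13 together, the betaine and GABA carriers of liver, could not be divided between them and is no member. It held 142 and 128 FPKM on vehicle, against 134 and 142 FPKM on UAB126.

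Of the 9 Slc16 members, 4 were higher and 2 lower in both UAB126 libraries, against 23.0% and 26.3% of all symbols with at least 0.5 FPKM, and none of the 8 tested passed limma's threshold (2 higher at an unadjusted p under 0.05). Slc16a10 encodes TAT1, which lets aromatic amino acids out of cells (chromosome 10, 40033532 to 40142258). It was at 24.2 and 19.7 FPKM on vehicle, against 30.9 and 34.6 FPKM on UAB126 (log2 difference 0.56 ± 0.20, limma adjusted p = 0.344). Slc16a1, the lactate and ketone body carrier MCT1, was at 10.9 and 11.3 against 15.6 and 16.2 FPKM, with close replicates in each group (log2 difference 0.48 ± 0.17). Slc16a9, a carnitine carrier (chromosome 10, 70245100 to 70285968), was at 0.625 and 0.428 against 1.04 and 1.28 FPKM, under the minimum for the test. Slc16a6, a ketone body carrier of hepatocytes (chromosome 11, 109450855 to 109473598), was at 1.57 and 1.00 against 2.81 and 1.74 FPKM. Part of the Slc16a6 reads may lie in a row shared with Arsg, at 4.90 and 14.8 against 6.79 and 1.38 FPKM, where the order of the groups was not the same.

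Slc16a11 (chromosome 11, 70212752 to 70216417), a monocarboxylate carrier gene expressed in liver, was at 10.9 and 7.66 FPKM on vehicle, against 4.45 and 7.66 FPKM on UAB126. Vehicle replicate 2 and UAB126 replicate 2 were thus almost equal, and the log2 difference of -0.57 ± 0.30 did not pass (limma adjusted p = 0.435). Slc16a13, 371 bases away on the other strand, overlapped at 2.56 and 1.24 against 0.857 and 1.29 FPKM. Slc16a12, a creatine carrier, was at 24.5 and 32.5 against 24.2 and 20.1 FPKM as the sum of 2 rows. Slc16a5 and Slc16a7 overlapped.

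Slc36a1 encodes PAT1, which exports small amino acids from lysosomes with protons (chromosome 11, 55204350 to 55236330). It was at 93.9 and 173 FPKM on vehicle, against 78.6 and 84.6 FPKM on UAB126, as the sum of 2 rows. The larger row held 84.7 and 168 against 69.7 and 79.5 FPKM. The smaller row overlapped, at 9.19 and 4.96 against 8.89 and 5.06 FPKM. The deposited locus of both rows, 54838908 to 55504842, reaches beyond the gene, and whether reads of other genes entered was not tested. The vehicle libraries were far apart, and the log2 difference of -0.64 ± 0.34 did not pass (limma adjusted p = 0.435). It was -0.20 without vehicle replicate 2 and -1.08 without vehicle replicate 1. Slc36a4 was at 1.05 and 0.968 against 1.15 and 1.06 FPKM, a gap within the scatter of the libraries (log2 difference 0.07 ± 0.22).

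The 3 Slc43 genes separated the groups, and not in the same direction. Slc43a1 encodes LAT3, a carrier of leucine and other branched-chain amino acids (chromosome 2, 84838850 to 84863594). It was at 6.72 and 5.84 FPKM on vehicle, against 2.47 and 2.59 FPKM on UAB126, 2.48 times as high in vehicle. The log2 difference of -1.04 ± 0.18 did not pass (limma adjusted p = 0.164). Slc43a3, a purine nucleobase carrier, lies 72984 bases further on the same strand (84936579 to 84958509). It was at 11.6 and 10.8 FPKM on vehicle, against 17.5 and 16.6 FPKM on UAB126, a log2 difference of 0.56 ± 0.17 (limma adjusted p = 0.305). Slc43a2, which encodes the related carrier LAT4, was at 1.53 and 1.63 against 2.38 and 2.32 FPKM. These neighbours on chromosome 2 were thus on opposite sides, each with little scatter within its group.

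**Figure D4:**
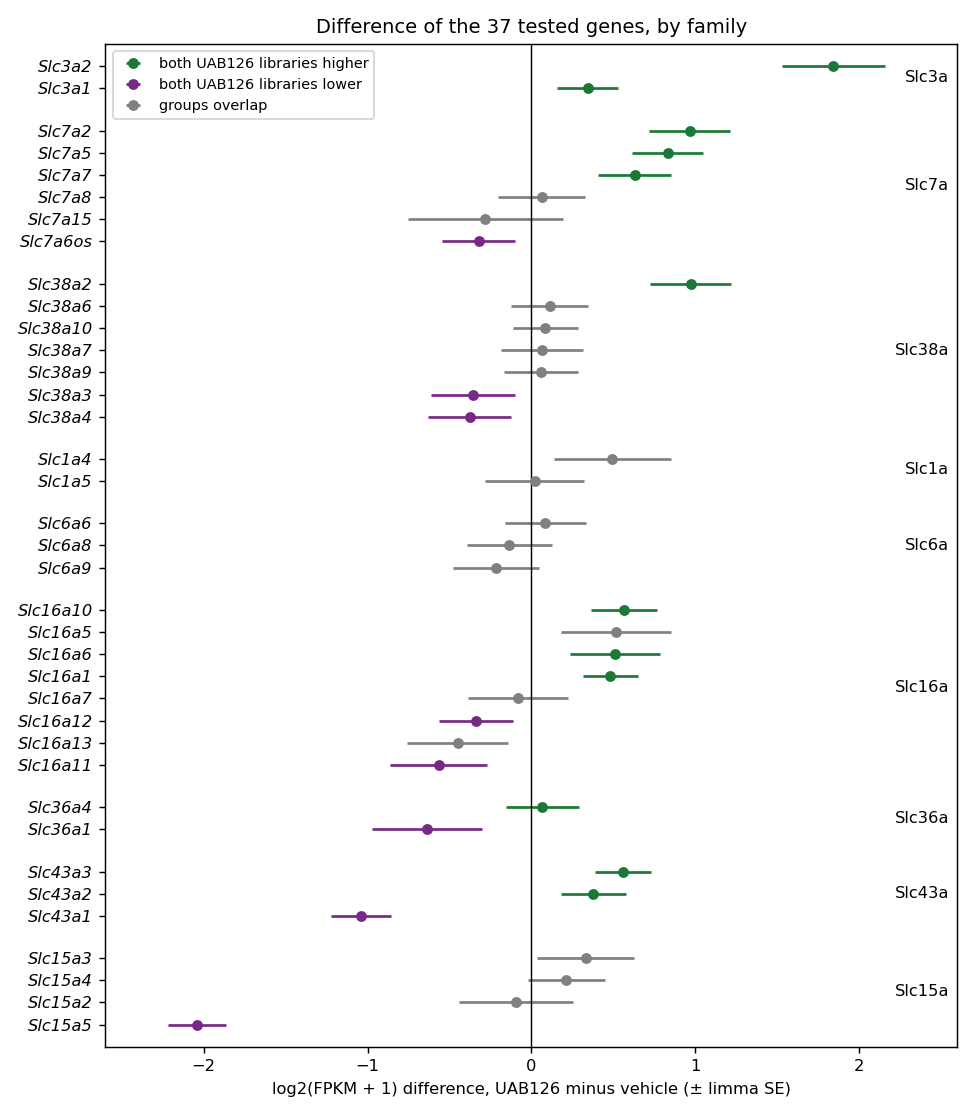
Log2(FPKM + 1) difference, UAB126 minus vehicle, of the 37 tested genes by family, with bars of 1 limma standard error. Green and purple mark genes with both UAB126 libraries above or below both vehicle libraries, and grey marks overlap. Slc15a5 at -2.04 is the gene past the threshold, and Slc3a2 (1.84) and Slc43a1 (-1.04) are next in size.

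Slc15a5 was the one member that passed, and it fell. It belongs by sequence to the proton-coupled peptide carriers, and its substrate is not established (chromosome 6, 137983586 to 138079916). It was at 8.87 and 9.28 FPKM on vehicle, against 1.39 and 1.504 FPKM on UAB126, 6.26 times as high in vehicle. The replicates of each group nearly coincided, and the log2 difference was -2.04 ± 0.18 (limma adjusted p = 0.0381). The call was lost in 5 of 17 alternatives, among them the fits without either UAB126 library (limma adjusted p = 0.371 without UAB126 replicate 1 and 0.4415 without replicate 2). Its size stayed between -2.57 and -1.96. The other Slc15 genes overlapped between the groups: Slc15a4, a lysosomal histidine and peptide carrier, was at 16.3 and 20.5 against 18.5 and 24.8 FPKM, and Slc15a2 and its relative Slc15a3 had under 3 FPKM in every library.

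Genes around the transporters were taken from lists that were drawn up with earlier results of these data known. In the ATF4 list, 26 genes were tested and 2 passed, both higher with UAB126: Fgf21, a liver hormone gene, and Nupr1, a stress-induced nuclear protein gene. Both UAB126 libraries were above both vehicle libraries in 17 of the 26 and below in 2, against 22.7% and 26.9% of all tested symbols, and the median log2 difference was 0.52, against -0.03 for all tested symbols. Asns, which makes asparagine, was at 1.04 and 1.43 FPKM on vehicle, against 10.2 and 15.4 FPKM on UAB126 (limma adjusted p = 0.0549). Psat1, an enzyme that makes serine, had 0.366 and 1.18 FPKM on vehicle, against 8.30 and 9.26 FPKM on UAB126 (limma adjusted p = 0.0707).

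The shares of all tested symbols just given, 22.7% and 26.9%, are also the background of the lists that follow. Among 7 tested partner and accessory proteins of carriers, none passed limma's threshold (1 higher and 1 lower at an unadjusted p under 0.05), with 1 higher and 2 lower in both UAB126 libraries. Sgk1, a kinase that raises the surface level of several carriers, was at 5.49 and 7.38 against 15.2 and 19.7 FPKM. Slc9a3r1 (NHERF1), a scaffold of membrane carriers, was at 213.9 and 213.97 against 132 and 123 FPKM. The list of amino acid sensing through mTORC1 and GCN2 had 33 tested genes, which include Mtor, Rptor, Mlst8, Eif2ak4 (GCN2), Tsc1, Tsc2 and Rheb. None passed limma's threshold and 0 had an unadjusted p under 0.05, while 12 were higher and 6 lower in both UAB126 libraries. The genes with the smallest p went both ways. Lamtor5 and Lamtor4, subunits of the Ragulator complex that anchors Rag GTPases to lysosomes, were at 24.5 and 34.9 against 19.9 and 19.4 FPKM and at 85.9 and 170.4 against 55.5 and 76.5 FPKM. Rragd, a Rag GTPase gene, was at 0.459 and 1.36 against 2.56 and 1.68 FPKM.

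Of 13 other carrier genes, most of them amino acid carriers of mitochondria or lysosomes, none passed limma's threshold (1 higher and 1 lower unadjusted). Both UAB126 libraries were higher in 4 of them and lower in 4. The largest gaps by p were in Slc17a8, at 8.87 and 6.31 against 2.98 and 4.75 FPKM, and in the carnitine carrier gene Slc22a5, at 5.36 and 2.87 against 6.72 and 9.70 FPKM. Of 13 enzymes of glutamine, glutamate and urea metabolism, 1 was higher and 4 lower in both UAB126 libraries, and none passed limma's threshold (2 lower unadjusted). Glul, glutamine synthetase of the hepatocytes around the central vein, was at 673 and 649 FPKM on vehicle, against 383 and 421 FPKM on UAB126 (log2 difference -0.72 ± 0.24, limma adjusted p = 0.322). Oat, ornithine aminotransferase of the same cells, was at 539.6 and 599 against 87.0 and 105.7 FPKM (limma adjusted p = 0.0531).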

How the data were processed

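Liver RNA was measured by paired-end sequencing (75 bases) in 4 libraries, 2 per group. Per the submitters' processing notes, the authors' tools were Trim Galore 0.4.1, STAR 2.5.1b on mm10, Cufflinks 2.2.1 and also Cuffdiff. The authors deposited 1 table of FPKM values. The sources used here give no settings, annotation or strand use. FPKM are already scaled for length and depth, so no count test was run. The columns still summed to 5.70e+06 and 1.18e+07 FPKM on vehicle, against 2.46e+06 and 2.89e+06 FPKM on UAB126. The main fit used the values without further scaling, and the part of these sums in the group differences was not tested.

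Of 27216 rows, 3634 had no symbol and were left out. The remaining rows were summed by symbol, and rows naming several genes were kept under their joint name. The test was limma 3.58.1 in R 4.3.3 (intensity trend, group as the only term, two-sided) on log2(FPKM + 1), so differences are on the log2(FPKM + 1) scale and understate the change of low genes. Each test has 5.35 degrees of freedom, 3.35 of them from the spread of other genes. Positions came from GENCODE M21 (GRCm38), where 99.59% of 20246 symbols checked overlapped the deposited locus.

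The members and all lists were chosen with earlier results of these data known. Some genes of these families are not reported here and are left out of all counts of members. Named members are those past the threshold, those of at least 1 FPKM with groups apart by 1.5-fold or more, the highest of each family, the 3 genes on either side of the minimum and, in each pathway list, up to 4 genes with the smallest p. Slc16a9 and Slc38a11 and other members were named after their values were seen. The relative depth came from ratios of values under 0.3 FPKM, of which 9.02% to 15.4% lay within 0.01 of the step.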

Additional observations from a re-analysis of the deposited data

How the results depend on the processing

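Over all genes the number past limma's threshold was 15, and it was 27 with a pseudocount of 0.1 FPKM, 24 with quantile normalization, 23 with median centring, 41 with a robust trend and 0 with no filter (1764 at an unadjusted p under 0.05). Leaving out vehicle replicate 1 gave 442 and leaving out vehicle replicate 2 gave 56, while 14 passed when UAB126 replicate 1 was dropped and 0 when UAB126 replicate 2 was (737 unadjusted). In these fits the lone library is taken to vary like the other group. Among the transporter genes limma called 1 (Slc15a5), and 0 with no filter, at a mean of at least 5 FPKM and with one prior spread (10, 7 and 10 unadjusted), and 0 to 1 on leaving out 1 library, with 0 on leaving out either UAB126 library. The groups share replicate numbers in their titles, which name libraries only. With the replicate block 148 genes passed over all and 2 among the transporters, Slc15a5 and Slc3a2, and the replicate 1 minus 2 differences of the groups correlated at 0.178 across genes. Members with both UAB126 libraries lower numbered 9, and 5 with quantile normalization and 11 to 15 without 1 library. Those higher numbered 13, and 7 among members of at least 5 FPKM and 15 to 21 without 1 library, since fewer libraries separate more easily. The median log2 difference of the members, 0.065, was 0.096 and 0.087 with pseudocounts of 0.1 and 0.5 FPKM, 0.096 with quantile normalization, 0.015 with the length trend removed and 0.066 to 0.11 without 1 library. It was 0.11 without vehicle replicate 2. Differences changed sign with quantile normalization in Slc1a5 (-0.0083), Slc38a3 (0.10) and Slc38a4 (0.033), and with the length trend removed in Slc36a4 (-0.061), Slc38a9 (-0.080) and Slc6a6 (-0.038). On leaving out 1 library, 13 members, all with overlapping groups, took both signs. Their log2 difference ran from -0.53 to 0.34 in Slc15a2, -0.021 to 0.68 in Slc15a3, -0.43 to 0.27 in Slc16a7, -0.35 to 0.39 in Slc1a5, -0.039 to 0.21 in Slc38a10 and -0.12 to 0.34 in Slc38a6. It ran from -0.23 to 0.35 in Slc38a7, -0.030 to 0.15 in Slc38a9, -0.13 to 0.30 in Slc6a6, -0.43 to 0.16 in Slc6a8, -0.45 to 0.019 in Slc6a9, -0.91 to 0.35 in Slc7a15 and -0.20 to 0.33 in Slc7a8. The causes of these changes were not tested.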

Other observations

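Among family genes below the 0.5 FPKM minimum, a few also had separate groups, and they were picked after their values were seen. Slc7a4, an orphan relative of the cationic carriers, was at 0.535 and 0.712 FPKM on vehicle, against 0.233 and 0.234 FPKM on UAB126. Slc36a2, a proton-coupled glycine and proline carrier known from kidney and fat, was at 0.299 and 0.372 against 0.094 and 0.0268 FPKM. Slc7a10, a serine and glycine carrier known from brain and fat, was at 0.206 and 0.267 against 0.353 and 0.502 FPKM. Of 5 adipocyte markers, Cfd (adipsin) was at 213 and 51.2 FPKM on vehicle, against 2.54 and 19.6 FPKM on UAB126, where all 5 summed to 220 and 59.6 against 7.27 and 33.4 FPKM. The other 4, Adipoq, Plin1, Lep and Retn, overlapped, with Adipoq at 2.80 and 2.59 against 2.09 and 4.47 FPKM and none at 0 in all libraries. The part of fat cells was not tested. Slc7a4, Slc36a2 and Slc7a10 were not in the fit, and their values may rest on few fragments.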
